A study of Mus musculus with 18 samples.

Results

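Uninjured dorsal root ganglia of mice lacking importin alpha3 were compared with uninjured ganglia of wild-type mice. The dorsal root ganglia are the clusters beside the spinal cord that hold the cell bodies of the sensory neurons, with their satellite glia, Schwann cells and vessels. The comparison takes the 8 naive libraries of the 18 in the series, as the labels assign them: 4 from knockout (KO) mice, titled ko_35, ko_39, ko_40 and ko_95, and 4 from wild-type (WT) mice, titled wt_28, wt_44, wt_48 and wt_67. The other 10 libraries came from mice of the same genotypes 7 d or 2.5 months after spared nerve injury (SNI), which severs part of the sciatic nerve and is used to model chronic nerve pain. The series was designed around importin alpha3, the transcription factor cFOS and the treatment of neuropathic pain. The labels call the genotype a knockout and give no allele, Cre driver, strain, age or sex, and they do not say how many mice a library holds, so the p-values below speak of library-to-library spread, which may be technical. RNA was total RNA sequenced after poly(A) selection.

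Importin alphas are adaptors that bind the nuclear localization signal of a cargo protein and, together with importin beta, carry it through the nuclear pore. Ran bound to GTP releases the cargo inside the nucleus, and an exportin returns the adaptor. Several importin alphas coexist in a cell and differ in the cargo they prefer. Importin alpha3, encoded by Kpna4, is known as a carrier of transcription factors such as NF-kappaB subunits, and cFOS is a partner of Jun proteins in AP-1.

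The naive libraries held 18634506 to 21585680 counts over 21288 listed genes, of which 19010 were tested. Levels are given in CPM, the usual counts relative to the scaled library size. A marker of the ganglion was abundant in all 8 libraries: Avil, an actin-binding protein of sensory neurons, read 626 to 971 CPM. The Y-linked gene Ddx3y read 26.6 to 43.1 CPM, with Xist at 0.292 CPM or less, as in male tissue. Several libraries stood apart from the rest of their group in ways that touch the results below. Mitochondrially encoded genes took 12.3% of the counts in ko_40 and 3.49% to 4.79% in the other 7 libraries. In ko_95 the 12 markers of meninges and perineurium summed to 1350 CPM, against 180 to 346 CPM elsewhere. In ko_35 the 10 skeletal muscle markers summed to 432 CPM, against 1.69 to 121 CPM elsewhere.

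Kpna4 (ENSMUSG00000027782, chromosome 3, 69067149 to 69127113, minus strand, GRCm38) read 2.5 CPM in ko_35, 1.83 in ko_39, 2.87 in ko_40 and 1.94 in ko_95. It read 108 CPM in wt_28, 120 in wt_44, 136 in wt_48 and 122 in wt_67. The groups did not overlap, and the KO mean was 1.89% of the WT mean. Kpna4 fell by 5.73 ± 0.34 on the log2 scale (SE, n = 4 per group, edgeR adjusted p = 3.56e-08).

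The other importin alphas measured did not pass the test. Kpna1 differed by 0.04 ± 0.11 on the log2 scale, Kpna3 by 0.05 ± 0.12, Kpna6 by 0.01 ± 0.14 and Kpna2 by -0.19 ± 0.23 (KO minus WT, SE). For Kpna1, Kpna3 and Kpna6 the sign turned when single libraries were left out. Per kilobase of exon, the WT level of Kpna3 was 17.9 ± 0.62 CPM per kb (SD, n = 4), followed by Kpna6 at 15 ± 1.56, Kpna1 at 14.5 ± 1.22 and Kpna4 at 13.6 ± 1.28; Kpna2, the form of dividing cells, stood at 1.09 ± 0.1. Neighbours in that order from Kpna6 to Kpna4 differed by less than their SD. Kpna4 thus made up 21.5% to 22.5% of the summed importin alpha level per kb in WT and 0.4% to 0.73% in KO. Without Kpna4 the remaining sum was 43.7 to 53.3 CPM per kb in KO and 44.1 to 52.3 in WT, so the ranges overlapped.

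Across all genes, 5 of 19010 were called at an adjusted p under 0.05, 2 higher and 3 lower in KO, which is 0.0263% of those tested. At an unadjusted p under 0.05, 516 genes passed, or 2.71%, fewer than the 5% that this threshold passes among genes that do not differ. The called genes were Kpna4, Tpm3-rs7, Mab21l1, 1500004A13Rik and Gm37558. All 5 were called in every alternative fit. The 95% interval of the difference lay within 1 log2 unit of 0 for 72.5% of the 18965 genes with a standard error. DESeq2 called 15 of 20869 genes, or 0.0719%, and edgeR on the 8 naive libraries alone called 8 of 16093, or 0.0497%; both included the same 5.

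**Figure D1:**
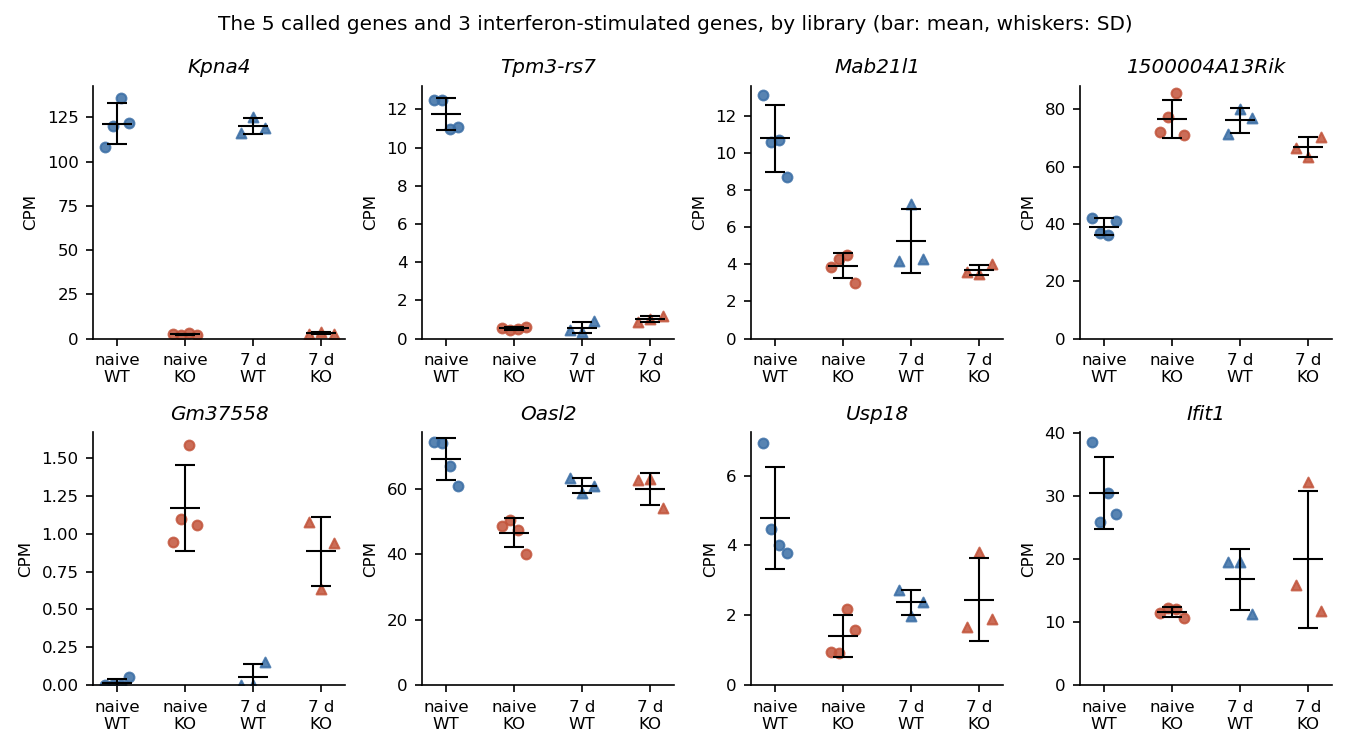
CPM (y axis, linear from 0) of the 5 called genes and of the interferon-stimulated genes Oasl2, Usp18 and Ifit1 in each naive library (circles) and each library 7 d after SNI (triangles), WT in blue and KO in red, with the mean as a bar and the SD as whiskers. Kpna4 was low in every KO library at both times, Tpm3-rs7 was high in the 4 naive WT libraries, and 1500004A13Rik was low in them.

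Of the called genes, Tpm3-rs7 (ENSMUSG00000058126, chromosome 14, 113314608 to 113316754, plus strand) is a near-identical copy of Tpm3, which encodes a tropomyosin that lies along actin filaments. The transcripts of Tpm3 (chromosome 3, 90072649 to 90100902) and Tpm3-rs7 were 99.1% identical over 2108 aligned bases, with 13 mismatches and 6 gap bases. A second pair of copies had KO and WT values without overlap in the naive libraries. Neither copy of that pair was called by edgeR on all libraries. Rps3a1 (chromosome 3, 86137940 to 86142702, minus strand) encodes a protein of the small ribosomal subunit, and Rps3a3 (chromosome 13, 108670603 to 108671397, plus strand) is annotated as a processed pseudogene of it. Their transcripts were 98.9% identical over 795 bases, with 9 mismatches and no gap. The coding stretches below hold the most differences that a window of 60 bases within 1 exon could hold. They are shown because the assignment of reads to these copies rests on such bases; capitals mark the differing bases, and the sequences were read from GENCODE M21 transcripts, 5′ to 3′ on the strand of the gene, GRCm38.
Rps3a1, chr3:86141326-86141385, minus strand: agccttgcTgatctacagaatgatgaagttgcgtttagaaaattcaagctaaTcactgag
Rps3a3, chr13:108670810-108670869, plus strand: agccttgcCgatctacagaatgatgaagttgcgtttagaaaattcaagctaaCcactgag
Tpm3, chr3:90079800-90079859, plus strand: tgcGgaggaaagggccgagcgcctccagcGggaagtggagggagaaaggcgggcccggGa
Tpm3-rs7, chr14:113314744-113314803, plus strand: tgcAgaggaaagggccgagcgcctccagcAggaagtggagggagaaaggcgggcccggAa

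Counted from the first base of the window, the Rps3a stretch carried the substitutions T9C and T53C and the Tpm3 stretch G4A, G30A and G59A, each written with the base of the parent gene first. The longest run without a difference was 215 bases between Rps3a1 and Rps3a3 and 628 bases between Tpm3 and Tpm3-rs7. Levels of single copies are therefore uncertain. The sum over copies does not depend on how counted reads were split between them. Whether it holds all reads of the copies was not tested.

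Tpm3-rs7 read 0.567, 0.457, 0.478 and 0.6 CPM in ko_35, ko_39, ko_40 and ko_95, and 12.5, 12.5, 11 and 11.1 CPM in wt_28, wt_44, wt_48 and wt_67. It fell by 4.46 ± 0.24 on the log2 scale (SE, edgeR adjusted p = 1.17e-08). Tpm3 itself read 40.1, 45.7, 48.2 and 51.3 CPM in the KO libraries and 34.2, 36.8, 30.8 and 28.8 CPM in the WT libraries. The groups did not overlap, with KO higher by 0.5 ± 0.11 on the log2 scale, but the difference was not called (edgeR adjusted p = 0.459; DESeq2 adjusted p = 0.0453). The sum of both copies came to 46.8 ± 4.72 CPM for KO and 44.4 ± 4.33 CPM for WT (SD over 4 libraries), a difference smaller than either SD.

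The 4 naive WT libraries were alone in this pattern among the 18. Tpm3-rs7 took 25.3% to 27.8% of the summed counts of the pair in them and 0.765% to 2.01% in every other library, including the 3 WT libraries at 7 d and the WT library at 2.5 months. At 7 d the difference, KO minus WT, was 0.84 ± 0.33 log2 units and was not called, so the signed difference was 5.3 ± 0.4 log2 units above the naive one (interaction, edgeR adjusted p = 3.29e-06). The interaction called 2 of 19010 genes in all, or 0.0105%.

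Rps3a1 read 0.52, 0.64, 0.319 and 0.6 CPM in ko_35, ko_39, ko_40 and ko_95, and 10.2, 22.7, 21.6 and 19.6 CPM in wt_28, wt_44, wt_48 and wt_67. Rps3a3 showed the opposite order, with 20, 21.3, 29.7 and 26.5 CPM in the KO libraries and 12.9, 0.146, 0.154 and 0 CPM in the WT libraries. The processed pseudogenes Rps3a2 on chromosome 14 (named after its values were seen) and Gm8960 on chromosome 10 followed Rps3a1. Rps3a2 read 0 CPM in 3 KO libraries, 0.0461 in ko_95 and 0.478 to 0.972 in WT, and Gm8960 read 0.0915 CPM or less in KO and 0.826 to 1.38 in WT.

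The 4 copies summed to 25 ± 4.43 CPM for KO and 23.6 ± 1.49 CPM for WT (SD over 4 libraries), a difference smaller than either SD. Rps3a3 took 96.7% to 98.8% of that sum in KO. In wt_44, wt_48 and wt_67 it took 0% to 0.649%, while wt_28 stood between the groups with 52.2%. None of the 4 copies was called by edgeR on all libraries; Rps3a1 differed by -5.12 ± 1.37 log2 units (edgeR adjusted p = 1) and Rps3a3 by 2.88 ± 1.22. DESeq2 called Rps3a1 (adjusted p = 0.0089) and Gm8960 (adjusted p = 0.0435), and so did edgeR on the naive libraries alone (adjusted p = 0.000118 and 0.00701).

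Outside the naive libraries the Rps3a copies divided the libraries in a like way, but not by label alone. Rps3a3 took 97.2% of the sum in ko_420 and 99.2% in ko_422 at 7 d, and 98.5% and 98.8% in ko_362 and ko_378 at 2.5 months. It took 0.394% and 0.546% in wt_409 and wt_416 at 7 d and 0.0923% in wt_376 at 2.5 months. Values in between appeared in wt_28, in wt_410 (43.9%) and in the libraries labelled KO ko_426 (37.5%) and ko_367 (48.5%). Kpna4 read 2.42 CPM in ko_426 and 5.63 CPM in ko_367, low as in the other KO libraries, against 89.6 to 125 CPM in the 4 WT libraries with injury.

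**Figure D2:**
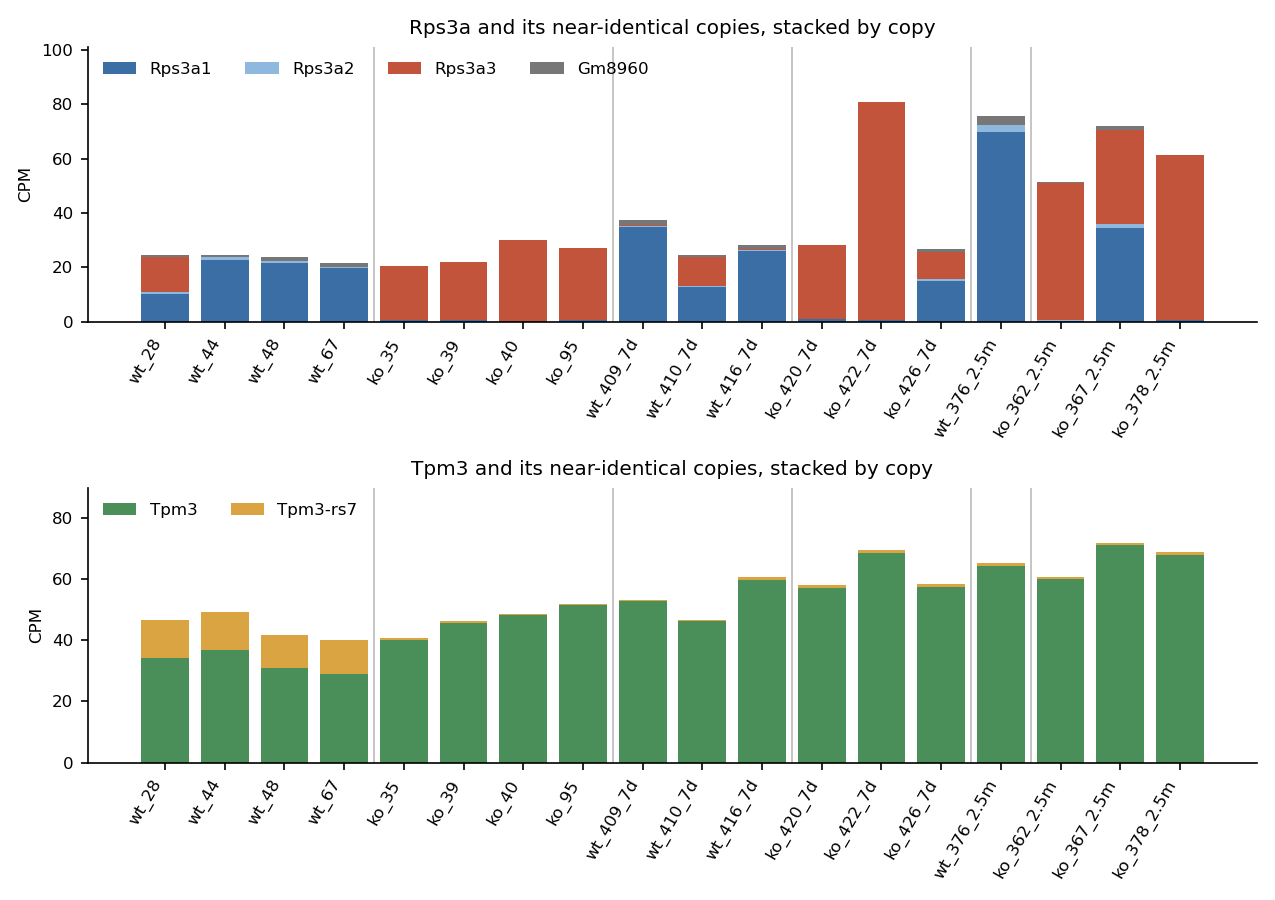
CPM (y axis) of the Rps3a copies (upper panel) and of Tpm3 and Tpm3-rs7 (lower panel), stacked, in each of the 18 libraries; vertical lines separate the genotype and time groups. The naive sums of KO and WT overlap in both panels, Rps3a3 makes up 96.7% to 98.8% of the upper bars in naive KO, and Tpm3-rs7 makes up 25.3% to 27.8% of the lower bars in naive WT.

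Other called genes lay on chromosome 3, as Kpna4 does. The noncoding transcript 1500004A13Rik (ENSMUSG00000098912, 88782943 to 88832547, minus strand) read 72.2, 77.5, 85.7 and 71 CPM in ko_35, ko_39, ko_40 and ko_95 and 42.1, 36.7, 36.2 and 41 CPM in wt_28, wt_44, wt_48 and wt_67. Every KO library was above every WT library, and the gene rose by 0.97 ± 0.1 on the log2 scale (SE, edgeR adjusted p = 0.000122). At 7 d it came to 66.8 ± 3.5 CPM for KO and 76.2 ± 4.39 CPM for WT (SD, n = 3), so the order of the groups was turned, and the interaction was called at -1.16 ± 0.15 log2 units (edgeR adjusted p = 0.0058). The KO levels of the 2 times lie near each other and near WT at 7 d, and the naive WT libraries are the low group.

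Mab21l1 (ENSMUSG00000056947, 55782510 to 55785001, plus strand), a gene known for its part in eye development, read 3.87, 4.3, 4.52 and 3 CPM in the KO libraries and 13.1, 10.6, 10.7 and 8.71 CPM in the WT libraries. It fell by 1.46 ± 0.19 on the log2 scale (SE, edgeR adjusted p = 0.00191). At 7 d it read 3.7 ± 0.26 CPM in KO and 5.25 ± 1.74 CPM in WT, without overlap, and that difference of -0.51 ± 0.23 was not called (edgeR adjusted p = 0.589).

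Gm37558 (ENSMUSG00000103094, 69119742 to 69122724) is a predicted transcript of 2983 bases on the same strand as Kpna4, within the first intron of all 3 annotated Kpna4 transcripts, with no base shared with a Kpna4 exon. Its counts and those of unspliced Kpna4 RNA cannot be told apart. It was counted 20, 24, 30 and 23 times in ko_35, ko_39, ko_40 and ko_95, 1 time in wt_67 and 0 times in the other WT libraries. Over the groups, 97 counts against 1 gave a ratio of 91.9 per scaled library size (95% exact Clopper-Pearson interval 16.1 to 3670, counting error only), and the gene was called higher (edgeR adjusted p = 0.000434). At 7 d it again stood higher in KO, at 0.885 ± 0.228 CPM against 0.0513 ± 0.0889 CPM (SD, n = 3).

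Of the 5 tested genes nearest to Kpna4 on either side, Gm37558 was the only one called. Trim59, a tripartite motif gene 22.4 kb away, read 2.74, 3.66, 5.1 and 4.06 CPM in the KO libraries and 2.69, 2.77, 1.79 and 2.44 CPM in the WT libraries. The groups overlapped by 1 library, and the difference of 0.68 ± 0.21 log2 units was not called (edgeR unadjusted p = 0.0048, adjusted p = 1). At 7 d, in other libraries, Trim59 read 4.81 ± 0.48 CPM for KO and 2.25 ± 0.4 CPM for WT without overlap, a difference of 1.09 ± 0.25 that was not called (edgeR adjusted p = 0.352). The neighbours Ift80, a part of the ciliary transport machinery, and Smc4, a condensin subunit, differed by -0.02 ± 0.1 and -0.25 ± 0.13.

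Chromosome 3 had 48 of 1012 tested genes at an unadjusted p under 0.05, or 4.74%, the highest share of the 20 chromosomes counted, followed by chromosome 19 with 4.3%. The share over all genes tested was 2.71%, and the threshold passes 5% among genes that do not differ. Kpna4 and Gm37558 are among the 48. Chromosome 3 held 4 of the 5 called genes. Its 16 genes at an unadjusted p under 0.01 started from 19.2 Mb on one side of Kpna4 to 68.3 Mb on the other. They included, 17.9 Mb away, the neighbours Cd1d1 and Cd1d2, named after their values were seen. Cd1d1 encodes a lipid antigen-presenting molecule, and Cd1d2 is annotated as a polymorphic pseudogene. Cd1d1 read 6.54 to 9.26 CPM in KO and 3.74 to 6.83 CPM in WT, and Cd1d2 read 0.319 to 0.553 CPM in KO and 0 to 0.249 CPM in WT. Their transcripts were 96.3% identical over 1201 bases, so their split is uncertain too. Their sum came to 8.7 ± 1.26 CPM for KO and 4.86 ± 1.5 CPM for WT (SD over 4 libraries), with wt_28 at 7.08 CPM inside the KO range. At 7 d it came to 13.1 ± 4.8 CPM against 5.69 ± 1.25 CPM.

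**Figure D3:**
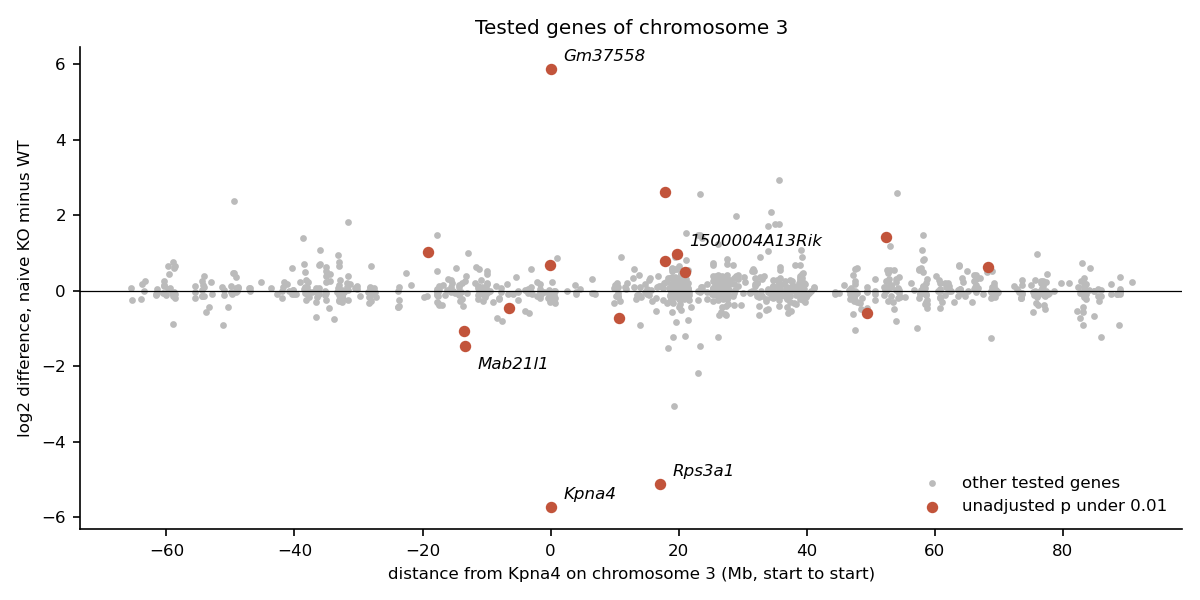
Log2 difference, naive KO minus WT (y axis), of each tested gene of chromosome 3 against its distance from Kpna4 in Mb, start to start (x axis); red points have an unadjusted p under 0.01. The 4 called genes and Rps3a1 are labelled, and red points lie on both sides of Kpna4 up to 68.3 Mb away.

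Interferon-stimulated genes read lower in naive KO ganglia, although edgeR on all libraries called none. Type I interferon raises antiviral genes, many of which carry an interferon-response element in their promoters. Of 27 members tested, 26 had a log2 difference below 0, with a median of -0.4 against 0.0028 over all genes tested. At an unadjusted p under 0.05, 10 of the 27 were lower in KO, against 1.06% of all genes, and 6 had KO values all below the WT values, against 2.16% of all genes (1.78% had KO values all above). The list was drawn up with an earlier summary of these data known, so its direction is not independent evidence.

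The 27 genes summed to 299, 324, 352 and 311 CPM in ko_35, ko_39, ko_40 and ko_95, and to 489, 398, 389 and 396 CPM in wt_28, wt_44, wt_48 and wt_67. The groups did not overlap, and wt_28 was the highest. Without wt_28, 21 of the 27 stayed below 0, 5 passed an unadjusted p under 0.05 and the median was -0.3; without ko_40, all 27 were below 0 and the median was -0.58. Markers of macrophages, cells that also carry these genes, summed to between 117 and 381 CPM for KO and between 138 and 360 CPM for WT. Of these 21 markers 17 were above 0, and 2 were without ko_40. Their part in the result was not tested.

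Oasl2, an oligoadenylate synthetase-like protein, read 48.5, 50.3, 47.4 and 40.1 CPM in ko_35, ko_39, ko_40 and ko_95 and 74.3, 73.8, 67 and 60.8 CPM in wt_28, wt_44, wt_48 and wt_67. The groups did not overlap, and the difference of -0.57 ± 0.1 log2 units lay just outside the threshold (edgeR adjusted p = 0.0503). Usp18, which removes ISG15 from proteins and restrains interferon receptor signalling, read 0.945, 0.915, 2.18 and 1.57 CPM in KO and 6.93, 4.47, 4 and 3.77 CPM in WT, a difference of -1.78 ± 0.31 (edgeR adjusted p = 0.0599). Ifit1, which binds foreign RNA caps, read 11.5, 12.3, 12 and 10.6 CPM in KO and 38.6, 25.9, 30.4 and 27.1 CPM in WT, a difference of -1.4 ± 0.26 (edgeR adjusted p = 0.103). All 3 were called by DESeq2, with adjusted p = 1.73e-05, 0.00017 and 0.000706. Among the 8 fits that each left out 1 library, Usp18 was called without ko_40 and Oasl2 without wt_67.

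The other members without overlap, named after their values were seen, were Ifit3b, Irf9 and Ddx58, the last encoding the viral RNA sensor RIG-I. Their differences were -0.82 ± 0.32, -0.35 ± 0.12 and -0.36 ± 0.1 log2 units. Stat2 was 70 to 72.4 CPM in KO and 81.9 to 88.4 CPM in WT, without overlap, a difference of -0.26 ± 0.09 that was not called (edgeR unadjusted p = 0.012, adjusted p = 1).

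The interferon-response element was searched as the letters GAAA, any 2 bases and GAAA again, on both strands of the 250 bases before the start of each gene, in RefSeq promoters on GRCm38.p6. Of the 27 members, 19 matched a promoter by symbol, and 9 of these (47.4%) held the motif, against 413 of 13128 tested genes (3.15%). The list was chosen for its response to interferon, so this excess comes with the choice and says nothing about the genotype. Of the members without overlap between the groups, 5 had a promoter entry: Ifit1 and Ifit3b held the motif, and Oasl2, Irf9 and Ddx58 did not have these letters in this window. Of the members whose groups overlapped, some held the motif and some did not. The stretches of Ifit1 and Ifit3b are shown to make the motif visible, here on the opposite strand and in capitals.
Ifit1, chr19:34640765-34640864, plus strand: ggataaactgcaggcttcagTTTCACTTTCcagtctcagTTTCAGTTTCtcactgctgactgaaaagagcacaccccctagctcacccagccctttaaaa
Ifit3b, chr19:34607749-34607848, plus strand: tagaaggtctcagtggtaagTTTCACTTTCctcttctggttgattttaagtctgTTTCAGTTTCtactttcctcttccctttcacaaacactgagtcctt

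In the libraries at 7 d the list did not show this direction. Those libraries entered the naive comparison only through the filter, the scaling and the shared estimate of spread. There 6 of the 27 were below 0 and the median was 0.25. Oasl2 differed by -0.02 ± 0.11, Usp18 by 0.05 ± 0.38 and Ifit1 by 0.25 ± 0.3 log2 units. The change in the genotype difference between the times was 0.55 ± 0.15 for Oasl2, 1.82 ± 0.49 for Usp18 and 1.65 ± 0.4 for Ifit1, and none was called (edgeR adjusted p = 0.948 for each).

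**Figure D4:**
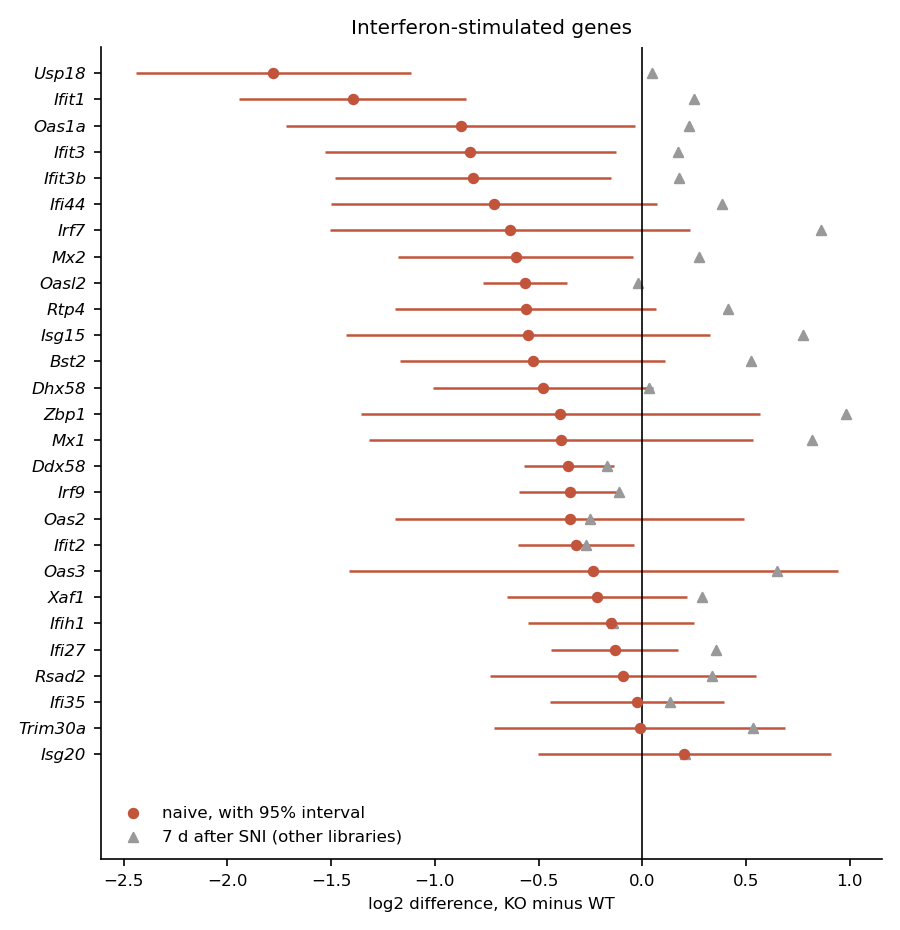
Log2 difference, KO minus WT (x axis), of the 27 interferon-stimulated genes tested, for naive libraries (red points with 95% intervals) and for the libraries at 7 d (grey triangles). In naive ganglia 26 of the 27 points lie below 0, and at 7 d 6 do.

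Of the genes that DESeq2 called besides these, 4 were single genes elsewhere in the genome, and edgeR called none of them. Zfp180, a zinc finger gene on chromosome 7, read 75.6 to 86.2 CPM in KO and 51.7 to 62 CPM in WT, a difference of 0.5 ± 0.09 log2 units (edgeR adjusted p = 0.0599; called without wt_48). Nup93, a scaffold protein of the nuclear pore, read 82.4, 95.1, 74.9 and 74.1 CPM in KO and 105, 112, 119 and 120 CPM in WT, a difference of -0.48 ± 0.09 (edgeR adjusted p = 0.155). Nos1, the neuronal nitric oxide synthase, read 159, 148, 133 and 111 CPM in KO and 83.5, 67.3, 88.8 and 85.2 CPM in WT, a difference of 0.76 ± 0.16 (edgeR adjusted p = 0.296). Naif1 on chromosome 2 read 9.01 to 9.82 CPM in KO and 5.85 to 6.61 CPM in WT, a difference of 0.58 ± 0.14.

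None of these 4 genes had overlapping groups. Of all genes tested, 2.16% had KO values all below the WT values and 1.78% had them all above. The 4 genes were picked by a call on these same values, so their separation is no further support. At 7 d Zfp180 differed by 0.32 ± 0.1, Nup93 by -0.27 ± 0.11 and Naif1 by 0.3 ± 0.16, in the naive direction, and Nos1 by -0.01 ± 0.19. None of these differences at 7 d was called. Among genes of at least 1 CPM in a group and without overlap, those with large differences that were not called included Slc2a5, a fructose transporter, at 2.49 to 3.34 CPM in KO and 0.872 to 1.75 CPM in WT. Sult2b1, a sterol sulfotransferase, read 1.49 to 2.42 CPM in KO and 0.744 to 1.26 CPM in WT. Avpr1a, a vasopressin receptor, read 0.0922 to 0.686 CPM in KO and 0.848 to 2.05 CPM in WT.

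Of the machinery around importin alpha, edgeR called no gene, and DESeq2 called Nup93 alone, with the values given above. Over all genes tested the shares called were 0.0263% by edgeR and 0.0719% by DESeq2. Of 19 importin beta family members and exportins, the differences ran from -0.18 to 0.08 log2 units, and all 19 intervals lay within 1 log2 unit of 0. Of 33 nuclear pore and Ran cycle genes, the median was -0.02 and all 33 intervals lay within 1 log2 unit of 0. In 3 of the 33, Nup93 included, every KO value was below every WT value, against 2.16% of all genes. At an edgeR unadjusted p under 0.05, 1 of the 33 was lower, against 1.06% of all genes.

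For the transcription factors, immediate-early genes and NF-kappaB target genes of the lists, no transcript was called. Fos read 2.83, 5.31, 7.07 and 5.63 CPM in KO and 5.39, 4.37, 6.77 and 4.62 CPM in WT, a difference of -0.02 ± 0.31 log2 units with a 95% interval of -0.68 to 0.63. The groups overlapped, and the sign turned without ko_35 or wt_48. None of 17 AP-1 and Maf factors, 18 immediate-early genes outside AP-1, 18 NF-kappaB and STAT factors or 16 NF-kappaB target genes was called, and their medians were 0, 0.09, -0.04 and 0.08. Over all genes tested the share called was 0.0263%. A list of this size without a call is therefore common, here and in the lists that follow. These are transcript levels and do not show where a protein lies in the cell.

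No ion channel gene of the lists was called either, against 0.0263% of all genes tested. None of 13 voltage-gated sodium channel genes was called, their differences ran from -0.23 to 0.26 log2 units, and all 13 intervals lay within 1 log2 unit of 0. None was called among 37 voltage-gated potassium channel genes (median -0.03), 19 voltage-gated calcium channel genes (median -0.04), 4 HCN genes (median -0.02) or 21 TRP and Piezo genes (median -0.04). In all, 663 genes of 47 lists were tested, or 690 entries, since some genes stand in more than 1 list. EdgeR on all libraries called Kpna4 and Tpm3-rs7 among them. DESeq2 also called the list members Oasl2, Usp18, Ifit1, Nup93 and Tpm3, and edgeR on the naive libraries alone also called Ifit1.

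Prkcb, the beta form of protein kinase C, read 77.3, 76.5, 60.6 and 69.7 CPM in KO and 80.7, 89.8, 107 and 99.1 CPM in WT. The groups did not overlap; the difference of -0.41 ± 0.11 log2 units was not called (edgeR unadjusted p = 0.0013), and at 7 d it was -0.7 ± 0.13 (edgeR adjusted p = 0.167). Bdnf, a neurotrophin of sensory neurons, read 21.8 to 27.9 CPM in KO and 26.4 to 67.3 CPM in WT, a difference of -0.76 ± 0.21 that was not called (edgeR unadjusted p = 0.00215).

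Markers of several neuron types read slightly lower in KO, those of nociceptors, the neurons that respond to harmful stimuli, among them. All 11 non-peptidergic markers were below 0, with a median of -0.23, and 9 of 11 peptidergic markers were, with a median of -0.24 that came to -0.11 without wt_48; none was called. Of the sensory neuron markers common to all types 10 of 11 were below 0 (median -0.1, and -0.03 without ko_40), and of the itch neuron markers 8 of 9 were (median -0.12, and -0.04 without wt_44). Of the markers of large myelinated neurons 12 of 15 were above 0, with a median of 0.14 that came to 0.27 without ko_40. No test compared these lists with each other. The peptidergic markers summed to 1880 to 1950 CPM in KO and 2020 to 2500 CPM in WT, without overlap. The non-peptidergic sums overlapped, at 2220 to 3050 CPM in KO and 2970 to 3220 CPM in WT. So did those of the common, itch neuron, large myelinated and C-fibre low-threshold mechanoreceptor markers (C-fibre median -0.04). At an edgeR unadjusted p under 0.05, 0 of 11 peptidergic and 1 of 11 non-peptidergic markers were lower, against 1.06% of all genes. Calca, which encodes the neuropeptide CGRP, read 911, 880, 811 and 879 CPM in KO and 979, 938, 1220 and 1030 CPM in WT, and Trpa1, an irritant-gated channel, read 55.7, 58, 51.8 and 40.3 CPM against 58.8, 66, 71.5 and 73.7 CPM. Of the non-peptidergic markers, Lpar3, a lysophosphatidic acid receptor, read 58.6, 59.6, 55.4 and 37 CPM in KO and 77.7, 73.5, 66.4 and 77.3 CPM in WT, with ko_95 the lowest; the difference of -0.49 ± 0.2 log2 units was not called. In bulk samples fewer cells of a type and less RNA per cell cannot be told apart. At 7 d, in other libraries, 11 of 11 non-peptidergic and 8 of 11 peptidergic markers were below 0, with medians of -0.34 and -0.22.

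Genes of cholesterol synthesis showed small differences, mostly below 0. Of 22 tested, none was called, 18 were below 0 and 4 above with a median of -0.11, and all 22 intervals lay within 1 log2 unit of 0. In 6 of them every KO value was below every WT value, against 2.16% of all genes. By edgeR on all libraries, 0 of the 22 were lower at an unadjusted p under 0.05, against 1.06% of all genes. The sums of the list overlapped, at 3390 to 3730 CPM in KO and 3610 to 3980 CPM in WT. The genes that follow are among the 6 without overlap. Tm7sf2, a sterol reductase, read 62.1, 57.6, 61.4 and 59.2 CPM in the KO libraries and 78.4, 69.8, 73.2 and 73.1 CPM in the WT libraries, a difference of -0.29 ± 0.14. Fdft1, the squalene synthase, read 194 to 224 CPM and 230 to 247 CPM in the same order, a difference of -0.18 ± 0.1. Nsdhl, another sterol enzyme, read 85.5 to 94.9 CPM and 97.4 to 103 CPM, a difference of -0.16 ± 0.08.

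Markers of several types of supporting cell read slightly higher in KO, and none was called. Those of repair Schwann cells did not, with 6 of 12 below 0 and 6 above (median -0.01). All 10 satellite glia markers, 13 of 13 myelinating Schwann cell markers, 10 of 10 mural cell markers and 12 of 13 endothelial markers were above 0, with medians of 0.25, 0.21, 0.45 and 0.31. The summed CPM of each of these lists overlapped between the groups. For myelinating Schwann cells wt_28 had the highest sum, 11700 CPM. In ko_40, the library with the high mitochondrial share, these sums were the highest of the KO libraries. Without it the medians were 0.1, 0.05, 0.26 and 0.16, and 9 of the 13 Schwann cell markers were above 0. The Schwann cell median was 0.04 without ko_95, 0.12 without wt_48, 0.1 without wt_67 and 0.52 without wt_28, and the mural cell median was 0.27 without wt_48. Fabp7, a fatty acid binding protein of satellite glia, read 178, 193, 331 and 183 CPM in KO and 130, 178, 141 and 131 CPM in WT, a difference of 0.61 ± 0.19 that came to 0.35 without ko_40 and was not called. The part of these libraries in the results was not tested. The non-peptidergic median was -0.12 without ko_95, the library with high meningeal markers, and the sensory neuron markers common to all types summed to 10400 CPM in ko_40 against 13200 to 14100 CPM in the other libraries.

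**Figure D5:**
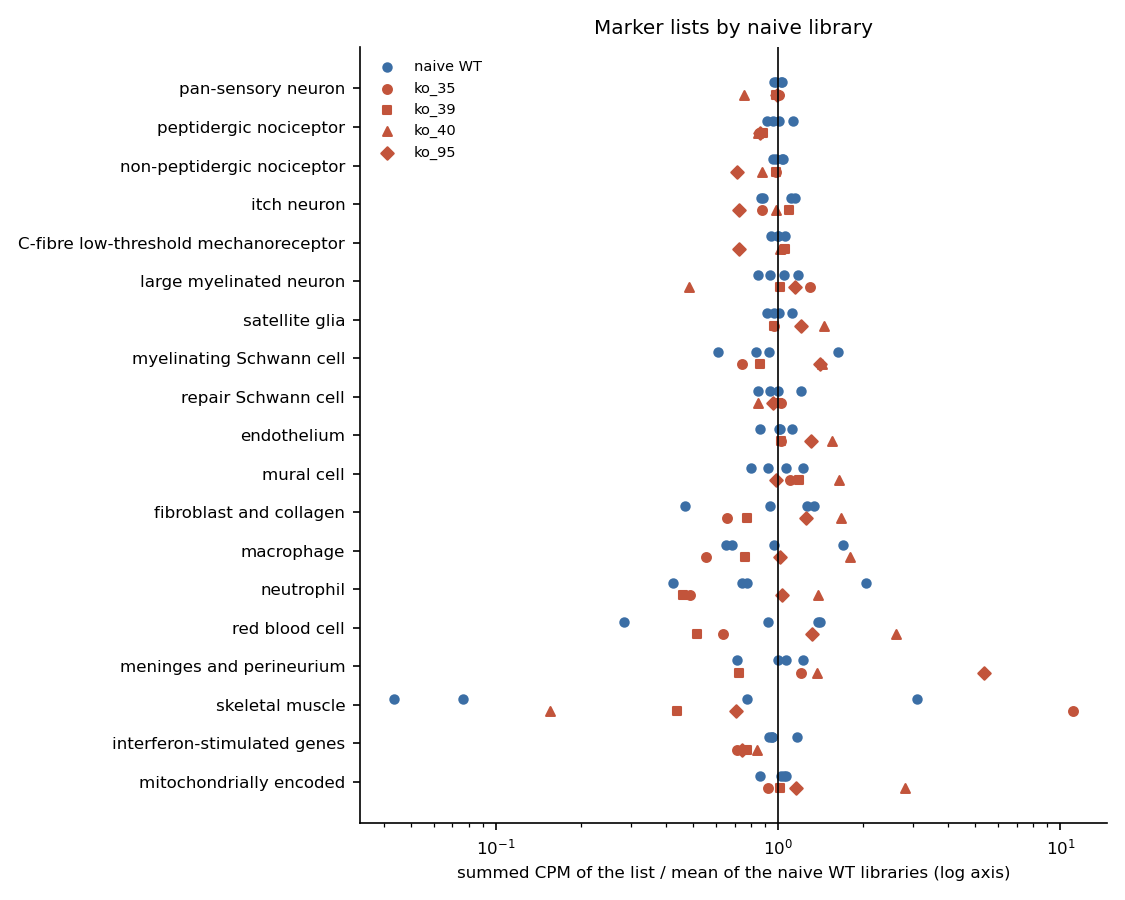
Summed CPM of each marker list divided by the mean of the naive WT libraries (x axis, log scale), for the 4 naive WT libraries (blue) and each naive KO library (red, 1 shape per library). The interferon-stimulated and peptidergic lists have every KO point left of every WT point; ko_40, ko_95 and ko_35 stand apart in mitochondrial, meningeal and skeletal muscle genes.

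None of the libraries at 7 d is a naive library, but they shared the fit and its estimate of spread. The p-values that picked the genes below rest on that fit. The signs of the genotype difference were counted at 7 d. Of the 516 genes at an unadjusted p under 0.05, 345 (66.9%) had the same sign at 7 d, against 9759 of the other 18494 genes (52.8%). On chromosome 3 it was 34 of 48 (70.8%), against 542 of the other 964 genes (56.2%).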

How the data were processed

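The values used were raw read counts per gene, as deposited by the authors. The submitters' processing notes name STAR 2.4.2a0, HTSeq 0.6.1p1, cutadapt, bcl2fastq 2.17.1.14, DESeq2 1.10.1 and the build GRCm38. The sources used here give neither the annotation release nor the strand setting, so counts of overlapping genes and near-identical copies are uncertain.

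Symbols, positions and merged exon lengths came from GENCODE M21. The genotype contrast was fitted with edgeR 4.0.16 in R 4.3.3 on all 18 libraries, with 1 mean per group, TMM scaling, filterByExpr (minimum count 10, minimum total 15), robust quasi-likelihood F tests with 12 residual degrees of freedom, and Benjamini-Hochberg adjustment over the 19010 genes tested. Calls are adjusted p-values under 0.05, and SE is the standard error of the log2 difference. The procedure was tested on simulated data. Transcripts were aligned with blastn 2.17.0. Alternatives were DESeq2 1.42.0, its size factors in edgeR, no filter, the compared groups alone, non-robust dispersion, and libraries left out.

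The genes named are Kpna4, Fos, the importin alphas, genes called by any of the 3 fits, the 10 largest differences each way without overlap at a mean of at least 1 CPM, the 5 nearest neighbours of Kpna4 each way, and up to 3 members of each list by smallest p. Rps3a2, Cd1d1, Cd1d2, Ifit3b, Irf9 and Ddx58 were named after their values were seen. Members and lists were chosen with earlier results of these data known. The authors' normalized table was not used here.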

Additional observations from a re-analysis of the deposited data

Results flagged for a closer look

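Groups of 4 naive libraries were examined for 1 library far from the other 3. Chance picks about 1 in 20 of independent groups that were not chosen by their values. Many genes here were chosen by these values, and some stand in more than 1 list. The count is therefore not to be set against that rate. Of 168 groups, 19 were picked out. Among genes these were Gm37558 in wt_67 (0.0531 CPM), Rps3a2 in ko_95 (0.0461 CPM), Rps3a3 in wt_28 (12.9 CPM), Cd1d2 in wt_28 (0.249 CPM), Ifit3b in wt_28 (8.83 CPM), Stat2 in ko_39 (72.4 CPM), Zfp180 in ko_35 (86.2 CPM) and Fabp7 in ko_40 (331 CPM). For Gm37558, Rps3a2 and Cd1d2 the other libraries of the group read 0 CPM. Any count is picked out there, and the stated rate does not apply.

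Among summed lists, ko_35 stood apart in AP-1 and Maf factors (556 CPM, low) and in skeletal muscle (432 CPM), and ko_39 in nerve injury genes (1860 CPM). The library ko_40 stood apart in sensory neuron markers (10400 CPM, low) and in mitochondrially encoded genes (110000 CPM). The library ko_95 stood apart in markers of C-fibre low-threshold mechanoreceptors (701 CPM, low) and of meninges and perineurium (1350 CPM). The library wt_28 stood apart in interferon-stimulated genes (489 CPM) and in protein kinase A and C subunits (4430 CPM, low). The mitochondrial share was 12.3% of counts in ko_40 and 3.49% in wt_67, the lowest of its group.

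The genotype difference changed between naive ganglia and 7 d for Tpm3-rs7, by 5.301 ± 0.4 log2 units (edgeR adjusted p = 3.29e-06), and for 1500004A13Rik, by -1.163 ± 0.15 (edgeR adjusted p = 0.0058). In both, the 4 naive WT libraries stood apart from the naive KO libraries and from both genotypes at 7 d.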

How the results depend on the processing

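The 5 calls held in each alternative run. The number of calls was 15 with DESeq2, 8 with the compared groups alone and 5 with the other scaling, without the filter, with non-robust dispersion and without ko_39 and ko_40 together; it ran from 5 to 6 when each naive library was left out in turn. The calls gained were Usp18 without ko_40, Zfp180 without wt_48 and Oasl2 without wt_67. The interaction called 2 genes in each alternative except the one without ko_39 and ko_40 together, which called 1, Tpm3-rs7. With single libraries left out, Kpna4 ran from -5.86 to -5.64 log2 units. The sign turned for Fos (-0.203 to 0.181), Kpna1 (-0.011 to 0.096), Kpna3 (-0.008 to 0.137) and Kpna6 (-0.052 to 0.071). The cause was not tested. Of 517 list medians recomputed, 68 changed sign. Bdnf came to -0.43 without wt_48. No paired analysis was possible because library numbers are not shared between the groups. Depth and 4 libraries a group limit what could be called: the median SE over genes was 0.2 log2 units.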
